A study of Mus musculus with 12 samples.

Results

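Day 4 of doxycycline (Dox) was compared with no treatment in AML246, a mouse acute myeloid leukemia, by RNA sequencing of bulk sorted cells. The comparison uses 6 of the 12 libraries of the series, chosen by their titles: 3 from untreated and 3 from day 4 Dox leukemic mice. All groups share the same leukemia, taken from the bone marrow of recipient mice of strain C57BL/6. The leukemia lacks p53, is described as cytogenetically normal and carries a Dox-responsive short hairpin against PU.1 that is linked to GFP. Dox shuts the hairpin off, and endogenous PU.1 returns over days. Untreated cells were sorted as GFPhigh and day 4 cells as GFPmid, so time on Dox, the gate and the return of PU.1 cannot be told apart, and neither can an effect of Dox itself, since no library came from Dox-treated cells without the hairpin. The data describe 1 leukemia, and the age of the mice and the promoter that drives the hairpin do not appear in the labels. Sample titles name technical replicates, whereas the design text names 3 mice for each condition, so p-values measure only how far these libraries spread, and that spread may be technical.

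PU.1, encoded by Spi1, is a transcription factor of the ETS family that myeloid and B cells need for their development. It binds purine-rich DNA sites, opens enhancers together with C/EBP and interferon regulatory factors, and drives genes for growth factor receptors, Fc receptors, lysosomal enzymes and the oxidase of phagocytes. Progenitor cells of acute myeloid leukemia typically express MYB, KIT and granule proteases and few genes of mature monocytes or neutrophils. The comparison asks which of these gene groups differed once the hairpin had been off for 4 days.

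The untreated libraries held 6157782 to 6593582 counts and the day 4 libraries 6449662 to 6728656 counts. Levels are given as CPM, read counts scaled to library size with TMM factors, in the order of replicates 1, 2 and 3. A gene is said to have risen or fallen where edgeR's quasi-likelihood test on all 12 libraries gave an adjusted p under 0.05 (Benjamini-Hochberg over 12057 genes). All adjusted p below come from that test. A log2 fold change of 1 is a 2-fold difference, and its error is a standard error (SE). Where a gene is given by group means, they are means ± SD of 3 libraries (n = 3), untreated first. Of the other libraries that share the fit, day 6 replicate 2 stood apart from its group. The first principal component of the 6 libraries separated the groups and took up 81.0% of the variance (untreated -55.99 to -42.1, day 4 39.2 to 54.6).

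At day 4, 2667 genes (22.1%) had risen and 2440 (20.2%) had fallen. Counts from the gene lists below are to be read against these shares. The rises were larger: 1044 genes (8.66%) rose and 642 (5.32%) fell by at least 2-fold, and 226 rose and 54 fell by at least 8-fold. The median absolute log2 fold change was 0.79 among genes that rose and 0.64 among genes that fell, and the median over all tested genes was -0.01. With genes split into 4 equal groups by expression, 14.4% rose in the lowest group and 31.0% in the highest, while the share that fell stayed between 18.7% and 21.5%. Libraries of the groups did not overlap, with day 4 above, in 3516 genes (29.2%), and with day 4 below in 3519 (29.2%). Scaling moved the balance: 52.2% of called genes were higher under TMM. The share was 41.2% when upper-quartile factors were used, with the median of all genes at -0.11, and 39.1% by library totals, with that median at -0.13. Without day 6 replicate 2 the counts were 3103 higher and 3040 lower, and with only the 6 libraries of the comparison 2836 and 2769. In bulk samples, more or fewer cells of a type cannot be told apart from more or less RNA per cell.

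Spi1 transcripts stood near 4 times the untreated level. Spi1 (ID 20375, mm10 chromosome 2, 91082374 to 91115759) measured 54.2, 67.5 and 65.9 CPM in untreated and 244, 267 and 269 CPM in day 4 libraries. All 3 day 4 libraries lay far above the 3 untreated ones, with a log2 fold change 2.06 ± 0.11, adjusted p = 1.28e-07. The exact two-sided permutation p was 0.1, the smallest that 3 against 3 libraries can give. Trp53 (ID 22059, mm10 chromosome 11, 69580348 to 69591873), the p53 gene, measured 41.8, 44.96 and 41.5 CPM in untreated and 33.3, 25.95 and 30.8 CPM in day 4 libraries. Its day 4 libraries all lay lower (log2 fold change -0.51 ± 0.11, adjusted p = 0.00274; exact permutation p = 0.1). The count covers the whole gene and does not show which exons were read, and so says nothing on the deletion. The granule genes Mpo, Elane, Prtn3 and Ctsg, which mark myeloid progenitors, were abundant in every library, the lowest value being that of Prtn3 in day 4 replicate 3, at 1560.5 CPM. Ptprc, which encodes the pan-leukocyte antigen CD45, was low in untreated cells, at 7.37, 25.2 and 10.5 CPM in untreated and 217, 305 and 310.0 CPM in day 4 libraries.

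The change of the RNA pool, counted as reads and not per gene length, was spread over many genes. The 8 genes with the largest gains held 12.9% of all CPM gained, and the 8 with the largest losses held 16.5% of all CPM lost. Lyz2 (ID 17105, mm10 chromosome 10, 117277541 to 117282272), the lysozyme of macrophages and granulocytes, gained most. It measured 914, 1053 and 1294 CPM in untreated and 9927, 13494 and 13791 CPM in day 4 libraries (log2 fold change 3.51 ± 0.22, adjusted p = 3.83e-07). The other large gains were Psap, a lysosomal sphingolipid activator precursor, Mpeg1, a pore-forming protein of phagosomes, Fn1 (fibronectin), the cytoskeletal genes Actb and Flna, Atp1b3, a sodium pump subunit, and Ctss, a lysosomal protease. Mpo (ID 17523, mm10 chromosome 11, 87793784 to 87804412), the myeloperoxidase of primary granules, lost most: it measured 17946, 19267 and 16901 CPM in untreated and 9669.9, 8207 and 6155 CPM in day 4 libraries (log2 fold change -1.17 ± 0.15, adjusted p = 7.03e-05). The other losses were Ctsg (cathepsin G), an identifier without a gene name, Eef1a1, Hsp90ab1, Calr, Nedd4 and Rplp0. The identifier without a name (ID 100861531) fell from 4363, 4112 and 4381 to 2803, 1685 and 1678 CPM. Hsp90ab1, a chaperone, was not called without untreated replicate 2 or 3 or day 4 replicate 2 or 3 (edgeR adjusted p 0.0617 to 0.102).

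Among abundant genes, those of at least 100 CPM in the higher group with no overlap of libraries, the 10 with the largest rises were Ptpro, Fcgr1, Pld4, Ms4a6c, Lpl, Gapt, Irf5, Pirb, Cd52 and Naaa. Ptpro (ID 19277, mm10 chromosome 6, 137252299 to 137464634), a receptor tyrosine phosphatase, was near the floor of detection before Dox, at 0.425, 0.835 and 1.01 CPM in untreated and 88.2, 111 and 124 CPM in day 4 libraries (log2 fold change 7.12 ± 0.45, adjusted p = 8.22e-07). Pld4, an endolysosomal exonuclease, measured 5.53, 13.9 and 6.18 CPM in untreated and 457, 519.6 and 606 CPM in day 4 libraries (log2 fold change 5.94 ± 0.52, adjusted p = 1.47e-05). Lpl, lipoprotein lipase, measured 13.6, 13.4 and 16.7 CPM in untreated and 517, 696 and 578 CPM in day 4 libraries (log2 fold change 5.36 ± 0.25, adjusted p = 7.37e-08). In all 3 genes the lowest day 4 library was more than 10 times the highest untreated one. Cd52, a small GPI-anchored leukocyte glycoprotein, and Naaa, a lysosomal hydrolase of fatty acid amides, went from means of 7.56 ± 3.90 to 230.1 ± 50.9 CPM and 4.76 ± 1.61 to 143 ± 6.61 CPM.

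Among the 10 largest falls by the same rule were Adgrg1, Plagl1, Stra6, Heph, Cited4, Svep1, Nedd4, Dio2 and Pik3ip1. Adgrg1 (ID 14766, mm10 chromosome 8, 94974756 to 95014208), an adhesion G protein-coupled receptor of stem and progenitor cells, measured 396, 269 and 447 CPM in untreated and 23.9, 21.9 and 18.2 CPM in day 4 libraries (log2 fold change -4.12 ± 0.19, adjusted p = 3.86e-08). Plagl1, an imprinted zinc finger factor, measured 338, 375 and 354 CPM in untreated and 67.1, 59.5 and 47.9 CPM in day 4 libraries (log2 fold change -2.61 ± 0.12, adjusted p = 3.86e-08). Nedd4, a ubiquitin ligase, measured 885, 820.3 and 847 CPM in untreated and 225, 218 and 149.6 CPM in day 4 libraries (log2 fold change -2.11 ± 0.20, adjusted p = 1.13e-05). In all 3 genes the highest day 4 library lay well under the lowest untreated one. Heph, a copper-dependent iron oxidase, went from 283 ± 40.6 to 54.0 ± 10.62 CPM, Dio2, an enzyme that activates thyroid hormone, from 136 ± 9.88 to 34.2 ± 6.15 CPM, and Pik3ip1, an inhibitor of PI3 kinase, from 102 ± 4.69 to 26.6 ± 9.12 CPM.

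Some genes had almost no reads in 1 group. In 6 genes each untreated library held at most 3 counts and the day 4 mean was at least 10 CPM: Aif1, Pgap1, Pira1, Clec10a, Sirpb1b and Galnt9. Clec10a, a galactose-binding lectin of macrophages and dendritic cells, had 1 count over the untreated libraries and 282 over the day 4 libraries. In the reverse direction stood Plch2, Ppl and Sox6. Plch2, a phospholipase C, was uneven before Dox, at 109, 30.3 and 153 CPM, and had 3 counts over the day 4 libraries. Fold changes at such levels depend on the prior count of the fit.

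**Figure D1:**
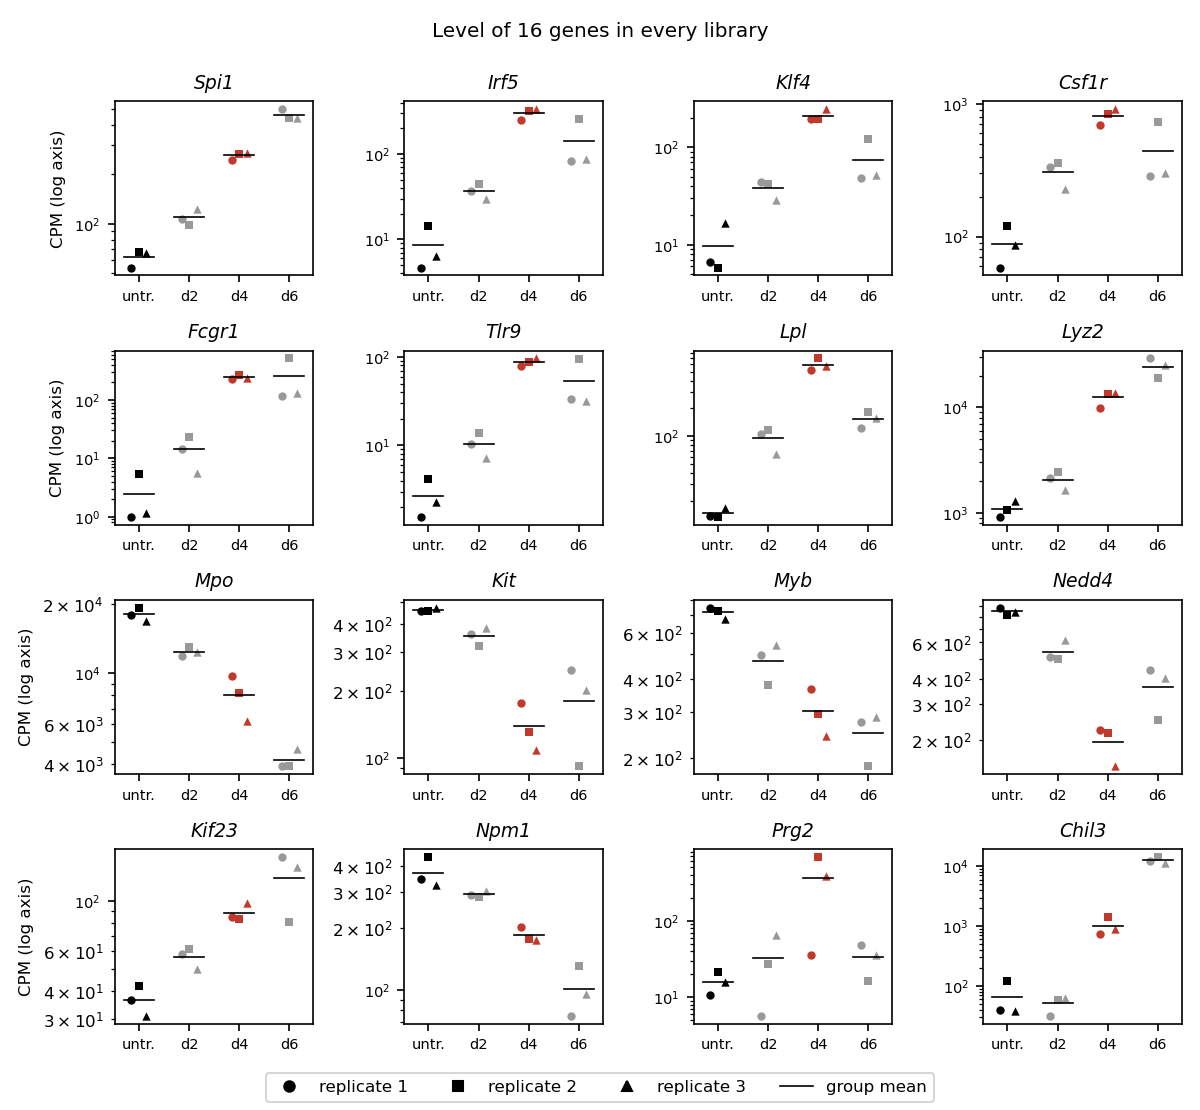
CPM on log axes (each panel has its own scale) of 16 genes in the 12 libraries, with untreated in black, day 4 in red and days 2 and 6 in grey, marker shape for the replicate number and a line for the group mean. Spi1 and most receptor genes sit well above untreated in all 3 day 4 libraries, Mpo, Kit, Myb and Nedd4 sit below, and Prg2 is split, with day 4 replicate 1 far under replicates 2 and 3.

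Regulators went in both directions. Of 8 tested interferon regulatory factors, a family with members that cooperate with PU.1, 5 rose (against 22.1% of all genes) and 0 fell. The rises were those of Irf5, Irf7, Irf1, Irf2 and Irf9. The other 3 tested members, Irf8 among them, were not called, and Irf4 was not tested. The median log2 fold change of the list was 0.73. Irf5 (ID 27056, mm10 chromosome 6, 29526130 to 29541869) measured 4.68, 14.3 and 6.46 CPM in untreated and 254, 322 and 337 CPM in day 4 libraries (log2 fold change 5.16 ± 0.54, adjusted p = 4.11e-05). Irf7 and Irf1 rose less, from 82.6 ± 52.1 to 277 ± 10.2 CPM and 66.3 ± 9.38 to 166 ± 38.8 CPM. With the replicate number added to an edgeR fit of the 6 libraries Irf7 was not called (adjusted p = 0.0655). Of 16 AP-1, MAF and EGR factors 9 rose and 0 fell, 4 of them past a test against a 1.5-fold change (glmTreat). Maf, a factor of macrophage identity, rose from 1.37 ± 0.701 to 17.6 ± 5.93 CPM. Atf3, a stress-induced factor, rose from 8.995 ± 4.84 to 29.1 ± 3.99 CPM.

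Kruppel-like factors went both ways, with 5 of 10 higher and 3 lower, or 1 lower without untreated replicate 3 or day 4 replicate 3. Klf4 (ID 16600, mm10 chromosome 4, 55527137 to 55532475), which drives monocyte differentiation, measured 6.66, 5.85 and 16.8 CPM in untreated and 195, 193 and 246 CPM in day 4 libraries (log2 fold change 4.44 ± 0.46, adjusted p = 4.07e-05). Klf6 and Klf10 rose by 1.27 and 1.26 on the log2 scale, and Klf9 fell from 69.0 ± 4.81 to 29.4 ± 2.70 CPM. The C/EBP factors, partners of PU.1 in granulocytes and monocytes, also divided. Cebpb and Cebpd rose from 62.6 ± 21.9 to 128 ± 8.80 CPM and 18.2 ± 1.11 to 52.0 ± 3.403 CPM. Cebpa, the factor of the step from common progenitor to granulocyte-monocyte progenitor, fell slightly, at 423, 393 and 601 CPM in untreated and 365, 309 and 311 CPM in day 4 libraries (log2 fold change -0.52 ± 0.15, adjusted p = 0.0121). Its highest untreated library was replicate 3, and without day 4 replicate 2 it was not called (adjusted p = 0.0576). Of 12 other ETS and partner factors 2 rose and 2 fell, near the shares over all genes. The count that rose was 1 without any single untreated library or day 4 replicate 2 or 3, and the count that fell was 1 without untreated replicate 2 or 3 or day 4 replicate 1 or 3. Elf4 (log2 fold change 0.83) rose and Etv6 (log2 fold change -0.59) fell.

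Of 19 tested progenitor factors, 8 fell (against 20.2% of all genes) and 1 rose, with a median of -0.54. The 1 that rose was not called without untreated replicate 2 or day 4 replicate 3. Myb (ID 17863, mm10 chromosome 10, 21124930 to 21160984), which sustains progenitor proliferation, measured 748, 727 and 679 CPM in untreated and 368, 293 and 242 CPM in day 4 libraries (log2 fold change -1.26 ± 0.19, adjusted p = 2.56e-04). Hlf, a stem cell factor, went from 20.7 ± 5.05 to 5.79 ± 1.55 CPM, and Satb1, a chromatin organiser, from 26.5 ± 7.22 to 10.7 ± 1.03 CPM. Sox6 was near 0 at day 4, with 12.5, 8.21 and 20.3 CPM in untreated and 0.300, 0.437 and 0 CPM in day 4 libraries. In the MYC network Myc itself measured 325, 253 and 253 CPM in untreated and 129, 127 and 76.8 CPM in day 4 libraries (log2 fold change -1.32 ± 0.25, adjusted p = 0.00147). Its day 4 libraries ran from 76.8 to 129 CPM and stayed below every untreated library. Mxd1 and Mxd3, antagonists of MYC, rose by 0.51 and 1.46 on the log2 scale (Mxd1 not without untreated replicate 1 or day 4 replicate 3, adjusted p 0.0527 to 0.0590), while the antagonist Mxd4 fell from 87.6 ± 17.99 to 52.6 ± 2.83 CPM.

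Nuclear receptors rose in 8 of 15 cases (53.3% against 22.1% of all genes) and fell in 1, Nr1h3. The latter was not called without untreated replicate 1 or 3, day 4 replicate 2, any single day 2 library or day 6 replicate 3. Rara, the retinoic acid receptor, went from 18.5 ± 9.02 to 84.6 ± 11.8 CPM, and Nr4a1, a factor of non-classical monocytes, from 1.85 ± 1.09 to 16.8 ± 4.52 CPM. Chromatin and DNA methylation regulators stayed near the background, with 5 of 33 higher and 7 lower. The lower count was 4 without untreated replicate 1 or day 4 replicate 3 and 11 with upper-quartile factors or library totals, and the higher count was 8 without day 6 replicate 2. Tet3, a methylcytosine oxidase, rose by 0.71 on the log2 scale, and the DNA methyltransferase Dnmt3b fell from 25.7 ± 1.97 to 15.4 ± 1.41 CPM.

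Of 27 tested receptors of colony-stimulating factors and cytokines 17 rose (63.0% against 22.1% of all genes) and 2 fell. Csf1r (ID 12978, mm10 chromosome 18, 61105572 to 61131139), which binds M-CSF, measured 58.4, 119 and 86.5 CPM in untreated and 698, 838 and 913 CPM in day 4 libraries (log2 fold change 3.21 ± 0.40, adjusted p = 1.30e-04). Csf2ra, the alpha subunit for GM-CSF, measured 38.1, 46.4 and 42.5 CPM in untreated and 254, 292 and 217 CPM in day 4 libraries (log2 fold change 2.59 ± 0.12, adjusted p = 3.86e-08). Il10ra and Il13ra1, subunits for interleukins 10 and 13, went from 2.16 ± 0.794 to 89.2 ± 19.0 CPM and 9.06 ± 2.51 to 112 ± 22.2 CPM. The falls were those of Ifngr1, the interferon gamma receptor chain, from 1064 ± 43.4 to 534 ± 63.1 CPM, and Tnfrsf1b, a TNF receptor. Tnfrsf1b measured 831, 1101 and 1206 CPM in untreated and 788, 833 and 849 CPM in day 4 libraries, with overlapping groups (log2 fold change -0.35 ± 0.12, adjusted p = 0.0384). It was not called without untreated replicate 2 or 3, day 2 replicate 1 or 2 or any single day 4 library (adjusted p 0.0526 to 0.164). Among 14 progenitor surface receptors 4 fell and 3 rose, near the 20.2% and 22.1% of all genes. Kit (ID 16590, mm10 chromosome 5, 75574987 to 75656722), the stem cell factor receptor, measured 458, 458 and 471 CPM in untreated and 177, 131 and 109 CPM in day 4 libraries (log2 fold change -1.74 ± 0.29, adjusted p = 8.51e-04).

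Receptors that bind antibodies and microbes rose widely. Of 7 Fc receptor genes 5 rose (71.4% against 22.1% of all genes) and 0 fell, and 3 of the rises passed the test against 1.5-fold. The abundant Fcgr3 was not called, at 550, 627 and 685 CPM in untreated and 618, 601 and 547 CPM in day 4 libraries. Fcgr1 (ID 14129, mm10 chromosome 3, 96282909 to 96293969), the high-affinity IgG receptor, measured 0.993, 5.29 and 1.15 CPM in untreated and 224, 269.7 and 240.4 CPM in day 4 libraries (log2 fold change 6.61 ± 0.85, adjusted p = 1.64e-04), and untreated replicate 2 was its highest untreated library. Fcer1g, the signalling chain the Fc receptors share, was already at 134 to 169 CPM and rose by 0.77 on the log2 scale. Of 25 Toll-like receptors and adaptors 19 rose and 0 fell, with a median of 1.19; 11 passed the test against 1.5-fold. Tlr9, an endosomal sensor of DNA, measured 1.56, 4.18 and 2.30 CPM in untreated and 78.0, 87.8 and 96.0 CPM in day 4 libraries (log2 fold change 5.01 ± 0.52, adjusted p = 3.53e-05). Tlr13, which senses bacterial ribosomal RNA, went from 3.39 ± 1.59 to 59.2 ± 14.5 CPM, and Tlr1, a sensor of lipopeptides, from 0.705 ± 0.272 to 17.4 ± 2.20 CPM.

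C-type lectin receptors had 13 of 20 higher and 3 lower. Clec4a1 and Clec4a3, close paralogs whose reads may be shared, went from means of 0.704 ± 0.361 to 65.5 ± 19.6 CPM and 0.468 ± 0.445 to 45.4 ± 9.84 CPM. Clec4d, a receptor of the same cluster of myeloid lectins, fell from 24.1 ± 5.91 to 13.2 ± 2.20 CPM, and Clec2i from 41.4 ± 12.1 to 17.4 ± 2.80 CPM. All 20 paired immunoglobulin-like receptors that rose, of 28 tested, did so by at least 2-fold, and 0 fell, with a median of 2.51. These genes come as activating and inhibitory members that tune myeloid activation. Pirb, an inhibitory member that binds MHC class I, measured 2.84, 4.59 and 3.74 CPM in untreated and 89.7, 138 and 124 CPM in day 4 libraries (log2 fold change 4.97 ± 0.23, adjusted p = 3.86e-08). Lilra6 measured 0.567, 1.11 and 1.01 CPM in untreated and 63.0, 83.4 and 81.8 CPM in day 4 libraries (log2 fold change 6.38 ± 0.40, adjusted p = 6.64e-07). The Pira, Pirb and Lilra6 genes are close copies, so the split of reads between them is uncertain, but untreated values of all named members were under 5 CPM.

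A PU.1-type motif stood in a larger share of promoters among genes that rose. The letters GAGGAAGT, a purine-rich ETS site that PU.1 prefers, were searched on both strands from 250 bases before to 50 after each RefSeq start (GRCm38.p6), with 9399 tested genes matched to a promoter. They stood in 4.06% of all these genes, in 6.78% of those that rose (exact binomial 95% interval 5.74 to 7.94), in 2.70% of those that fell (2.02 to 3.54) and in 3.48% of those not called (3.01 to 4.00). Of 338 genes that rose by at least 4-fold 42 (12.4%, interval 9.10 to 16.4) held them, against 3 of 134 (2.24%, 0.464 to 6.40) that fell as much. The 6 windows below, 60 bases each on the strand of the gene, belong to genes with large rises. These genes were picked among those of at least 50 CPM that held the match before the start site. They therefore do not show how often large rises carry the match, which is the 12.4% given above. The windows are shown so that the bases around the match can be compared between genes. Capitals mark the match, written as ACTTCCTC where it lies on the opposite strand.
Lilra6: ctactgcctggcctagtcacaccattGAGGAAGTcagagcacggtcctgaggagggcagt
Gapt: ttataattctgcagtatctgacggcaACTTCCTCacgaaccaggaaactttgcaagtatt
Pirb: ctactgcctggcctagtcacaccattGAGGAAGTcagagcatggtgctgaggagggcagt
Apobr: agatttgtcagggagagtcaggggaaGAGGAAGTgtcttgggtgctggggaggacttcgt
Nlrp1b: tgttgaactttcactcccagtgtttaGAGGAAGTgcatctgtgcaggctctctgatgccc
B430306N03Rik: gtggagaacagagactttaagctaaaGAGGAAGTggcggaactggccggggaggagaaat
They lie at chr7:3915618-3915677 (minus strand), chr13:110357251-110357310 (minus strand), chr7:3720469-3720528 (minus strand), chr7:126584899-126584958 (plus strand), chr11:71230796-71230855 (minus strand) and chr17:48316064-48316123 (plus strand). The matches end between 64 and 142 bases before the annotated start sites. The windows of Lilra6 and Pirb differ at 2 of 60 bases, as copied genes do, so they are not independent examples.

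The same search was run for sites of C/EBP and MYC, on both strands of the same windows. The letters TTGCNNAA, of C/EBP type, stood in 10.2% of all promoters, 12% of genes that rose, 16.6% of those that rose 4-fold, 9.22% of those that fell and 12.7% of those that fell 4-fold. The letters CACGTG, the E-box that MYC and its relatives bind, stood in 11.9% of all promoters, 11.1% of genes that rose, 7.69% of those that rose 4-fold, 14% of those that fell and 11.2% of those that fell 4-fold. None of the 3 motifs contains another. Genes with several starts have several windows, on average 1.27 a gene over all tested genes, 1.31 among genes that rose and 1.27 among those that fell. A match says only that the letters occur in the window, and binding was not measured.

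**Figure D2:**
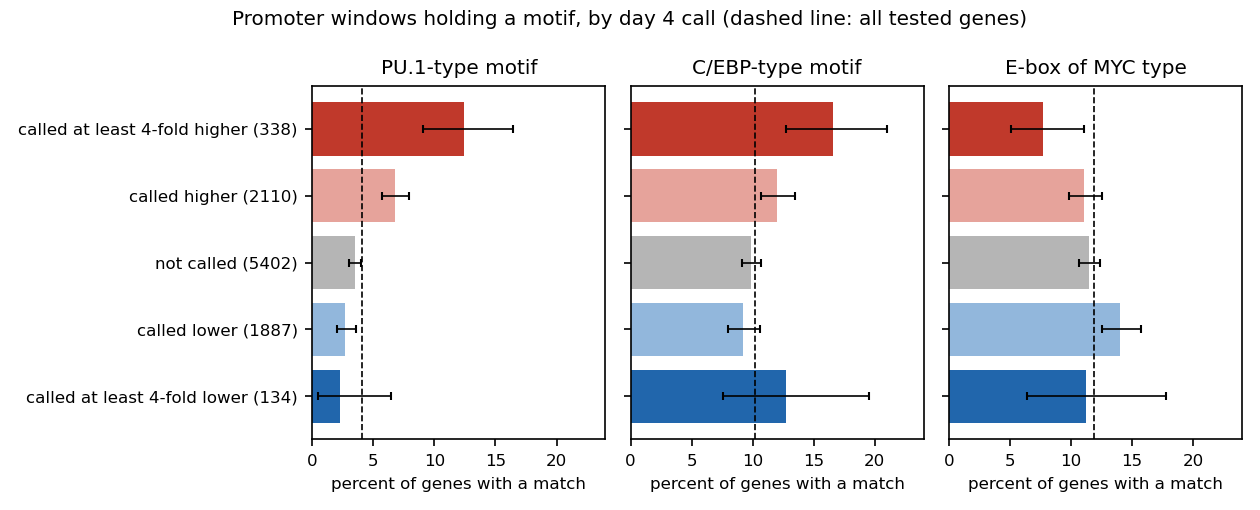
Percent of tested genes with a RefSeq promoter whose window holds each motif (horizontal axis), for genes grouped by their day 4 call with the number of genes in brackets; whiskers are exact binomial 95% intervals and dashed lines give the share over all tested genes. The PU.1-type share runs from 12.4% among 4-fold rises to 2.24% among 4-fold falls, and the E-box share is lowest, at 7.69%, among 4-fold rises.

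Scavenger and clearance receptors had 7 of 12 higher and 1 lower. Cd68, a lysosomal glycoprotein of macrophages, and Axl, a receptor for apoptotic cells, went from 7.45 ± 1.33 to 104 ± 11.5 CPM and 10.5 ± 3.37 to 59.3 ± 14.4 CPM. Olr1, a receptor of oxidised lipoproteins, fell from 346 ± 72.3 to 154 ± 21.4 CPM. Among chemokine and chemoattractant receptors 15 of 26 rose and 0 fell. Ccr2, which guides inflammatory monocytes, measured 35.03, 39.4 and 29.7 CPM in untreated and 521, 638 and 741 CPM in day 4 libraries (log2 fold change 4.19 ± 0.40, adjusted p = 2.07e-05). Gpr35 and Ccr1 went from 2.60 ± 1.27 to 72.8 ± 12.4 CPM and 2.69 ± 0.350 to 20.4 ± 6.88 CPM. Of 25 integrins and adhesion molecules 15 rose. Itgam, the alpha chain of complement receptor 3, measured 22.7, 44.3 and 19.3 CPM in untreated and 203, 376 and 328 CPM in day 4 libraries (log2 fold change 3.39 ± 0.45, adjusted p = 2.21e-04), and Itgal, which pairs with the same beta chain, went from 73.6 ± 14.3 to 321 ± 26.5 CPM.

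Some of the genes that changed lay side by side on a chromosome. Runs of at least 4 neighbouring tested genes called the same way numbered 50 for rises (247 genes) and 36 for falls (160 genes), and with calls of at least 2-fold 14 and 0. With 22.1% of all genes higher and 20.2% lower, some runs arise without any link between neighbours. How many was not tested, so the number of runs does not show clustering. The longest run held 10 interferon-inducible genes of the Ifi200 family, Ifi214 to Ifi205, on chromosome 1 (173521311 to 174031755), and its leading genes were Ifi207, Ifi205 and Ifi208. By limma voom Ifi208 was not called (adjusted p = 0.0501). Ifi207 measured 5.81, 12.1 and 9.48 CPM in untreated and 173, 190.4 and 189 CPM in day 4 libraries (log2 fold change 4.33 ± 0.59, adjusted p = 2.60e-04). The next, with 8 genes from Ms4a8a to Ms4a6d on chromosome 19 (11067471 to 11604804), had a median log2 fold change of 5.04. Of 9 tested Ms4a genes, which encode 4-pass membrane proteins, 8 rose. Ms4a6c measured 7.52, 21.7 and 9.91 CPM in untreated and 579.8, 596 and 699.9 CPM in day 4 libraries (log2 fold change 5.58 ± 0.60, adjusted p = 5.26e-05). Ms4a6d and Ms4a4c, its neighbours, went from 0.889 ± 0.709 to 65.2 ± 19.3 CPM and 1.59 ± 1.64 to 83.3 ± 13.9 CPM.

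Of the other runs that rose, 3 held 7 genes each, on chromosome 19 from Acta2 to Ifit3b with Fas, Lipa and the Ifit genes between (Ifit3b not called by limma voom, adjusted p = 0.0674), on chromosome 7 from Pirb to Lair1, and on chromosome 4 from Gpatch3 to Rps6ka1. The chromosome 7 run is the paired receptor cluster of the promoter windows above, with a median of 5.51, whereas the chromosome 4 run of unrelated genes had a median of 0.71. In that run Rps6ka1, a kinase of the ERK pathway, went from 327 ± 15.5 to 623 ± 27.0 CPM. The longest run of falls, 7 genes from Bhlhb9 to Morf4l2 on the X chromosome, had a median of -1.09. Its largest fall was Bhlhb9, at 18.7, 16.6 and 10.2 CPM in untreated and 3.90, 3.06 and 3.82 CPM in day 4 libraries (log2 fold change -2.07 ± 0.32, adjusted p = 2.85e-04). Families of copied genes sit in several runs, so the genes of a run are not independent measurements.

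Granule genes went both ways. Primary granules form in promyelocytes, and secondary and tertiary granules form later, toward the mature neutrophil. Of 22 tested genes of the primary granule list 7 fell and 8 rose, against 20.2% and 22.1% of all genes. The falls include those of Gstm1 and Calr, which stand in the glutathione and endoplasmic reticulum lists too. The rises include those of the eosinophil genes Prg2 and Prg3. Beside Mpo, the protease Ctsg measured 4058, 4478 and 4399 CPM in untreated and 2106, 1994 and 1677 CPM in day 4 libraries (log2 fold change -1.16 ± 0.12, adjusted p = 1.69e-05), and day 4 replicate 3 was the lowest library for both. The granule proteases Elane and Prtn3 were not called. Elane measured 4771, 5682 and 4763 CPM in untreated and 4700, 3815 and 2694 CPM in day 4 libraries. Prtn3 measured 1590, 2296 and 1745 CPM in untreated and 2091, 2081 and 1560.5 CPM in day 4 libraries. Ctsc, which activates granule proteases, rose from 127 ± 16.3 to 724 ± 23.5 CPM. Of 32 genes of the secondary and tertiary granule list 22 rose and 1 fell, with a median of 1.81. The list is broader than granule contents, and its rises include stefins, Padi4, S100a8 and S100a9. The higher count was as low as 16 as single libraries were left out, and 14 passed the test against 1.5-fold. Chil3, a chitinase-like secreted lectin, measured 39.3, 121 and 38.1 CPM in untreated and 739.9, 1442 and 885 CPM in day 4 libraries (log2 fold change 3.95 ± 0.49, adjusted p = 1.28e-04). Stfa3, a stefin protease inhibitor with close paralogs, measured 2.84, 4.32 and 1.72 CPM in untreated and 15.5, 74.8 and 62.4 CPM in day 4 libraries (log2 fold change 4.09 ± 0.91, adjusted p = 0.00477), and its day 4 replicate 1 stood well below replicates 2 and 3. The gene that fell was Slpi, a secreted inhibitor of elastase, at 715, 729.8 and 738 CPM in untreated and 403, 428 and 419.8 CPM in day 4 libraries.

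Prg2 and Prg3, counted among the rises of the primary granule list, encode major basic proteins of eosinophils and stand in the eosinophil list too. Prg2 measured 10.64, 21.3 and 15.8 CPM in untreated and 35.3, 676 and 383 CPM in day 4 libraries (log2 fold change 4.52 ± 1.04, adjusted p = 0.00592), and Prg3 0.567, 2.09 and 1.58 CPM in untreated and 2.25, 56.6 and 27.0 CPM in day 4 libraries. Prg3 was not called without day 4 replicate 2 (adjusted p = 0.0553), nor by limma voom or with only the 6 libraries (adjusted p = 0.195 and 0.0666). Prg2 was not called with the replicate number added to an edgeR fit of the 6 libraries (adjusted p = 0.0783). Day 4 replicates 2 and 3 were many times above replicate 1, which was above the untreated libraries for both genes by a smaller margin. The wider list of eosinophil, basophil and mast cell genes had 7 of 12 tested members higher and 1, Mcpt8, lower. The higher count dropped to 3 when day 4 replicate 2 was left out and to 4 when untreated replicate 1 was, and Mcpt8 was not called without untreated replicate 1 or day 4 replicate 3 (adjusted p 0.0734 to 0.0873). The summed level of the list was 62.0 to 75.6 CPM in untreated libraries and 74.1, 580.4 and 1089 CPM, in ascending order, at day 4. The eosinophil peroxidase gene Epx had 37, 143 and 133 counts in untreated and 57, 945 and 421 counts in day 4 libraries, and was not called. The part of such cells in these and other results was not tested.

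The phagocyte oxidase rose almost whole. Of 11 genes of the NADPH oxidase, which makes superoxide against microbes, 10 rose and 0 fell, 5 of them past the test against 1.5-fold. Cybb, its catalytic subunit, measured 77.3, 153 and 89.4 CPM in untreated and 963, 1047 and 697 CPM in day 4 libraries (log2 fold change 3.08 ± 0.31, adjusted p = 2.07e-05). The cytosolic subunits Ncf1 and Ncf4 rose from 227 ± 30.1 to 749 ± 87.6 CPM and 51.2 ± 8.24 to 159 ± 26.7 CPM. Complement genes had 8 of 16 higher and 0 lower. Cfp, properdin of the alternative pathway, measured 5.25, 13.5 and 6.32 CPM in untreated and 123, 192 and 263 CPM in day 4 libraries (log2 fold change 4.52 ± 0.35, adjusted p = 4.87e-06). C4b and Cfb went from 10.2 ± 3.84 to 77.6 ± 46.4 CPM and 15.8 ± 11.6 to 74.8 ± 18.3 CPM, with day 4 replicate 1 the highest in both. Cfb was not called without untreated replicate 3 (adjusted p = 0.0514), nor with the replicate number added to an edgeR fit of the 6 libraries (adjusted p = 0.0647).

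Genes of antigen presentation rose more widely on the class II side. Of 19 tested class II pathway genes 13 rose, all by at least 2-fold, and 0 fell, while 6 others, Ciita among them, were not tested. The summed level of the list was 233 to 250 CPM in untreated and 1525 to 1815 CPM in day 4 libraries. At day 4 Ctss made up the larger part of that sum. Ctss, which trims the invariant chain, measured 25.95, 55.0 and 31.0 CPM in untreated and 961, 1086 and 1252 CPM in day 4 libraries (log2 fold change 4.88 ± 0.52, adjusted p = 5.02e-05). Marchf1, a ubiquitin ligase that removes class II molecules from the surface, measured 1.99, 2.78 and 1.44 CPM in untreated and 57.3, 71.3 and 83.7 CPM in day 4 libraries (log2 fold change 5.08 ± 0.20, adjusted p = 2.06e-08). Lgmn, an asparaginyl protease, and the costimulator Cd86 went from 8.31 ± 3.69 to 78.3 ± 19.96 CPM and 0.613 ± 0.408 to 14.5 ± 5.79 CPM. On the class I side 10 of 25 rose and 2 fell, with a median of 0.23, and 2 of the rises passed the test against 1.5-fold. The summed level of the class I list overlapped, at 13068 to 15021 CPM in untreated and 13893 to 16267 CPM in day 4 libraries. Tapbp, the peptide-loading chaperone tapasin, rose from 181 ± 31.4 to 448 ± 59.1 CPM, while Tap2, a peptide transporter, fell by 0.59 on the log2 scale.

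Lysosome genes formed another broad rise. Of 42 lysosomal hydrolases and membrane proteins 30 rose and 3 fell, and of 17 subunits of the V-ATPase, the pump that acidifies lysosomes, 15 rose and 0 fell. The rises of the pump were small, with a median of 0.56 and 5 past the test against 1.5-fold. Psap measured 1175, 1781 and 1704 CPM in untreated and 4765, 5423 and 6329 CPM in day 4 libraries (log2 fold change 1.83 ± 0.20, adjusted p = 2.27e-05). The cathepsin Ctsh went from 95.6 ± 23.4 to 375 ± 58.3 CPM and the pump subunit Atp6v0b from 100.6 ± 2.66 to 247 ± 21.0 CPM. Gla, the alpha-galactosidase of lysosomes, fell from 59.6 ± 3.61 to 31.3 ± 2.02 CPM.

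Genes of lipid mediators and interleukin-1 were among those that rose. Of 17 genes of leukotriene and prostaglandin metabolism 9 rose and 1 fell. Hpgd, which inactivates prostaglandins, measured 1.99, 2.09 and 1.72 CPM in untreated and 66.5, 92.7 and 108 CPM in day 4 libraries (log2 fold change 5.51 ± 0.38, adjusted p = 1.33e-06). Alox15, a lipoxygenase of eosinophils and macrophages, measured 0.851, 0.835 and 1.72 CPM in untreated and 8.55, 160.2 and 93.5 CPM in day 4 libraries (log2 fold change 6.25 ± 1.15, adjusted p = 0.00162), with the same split of day 4 libraries as Prg2, and was not called by limma voom (adjusted p = 0.147). Of 24 interleukin-1 and inflammasome genes 19 rose and 0 fell. The inflammasome sensor Nlrp1b went from 6.87 ± 2.22 to 57.3 ± 1.69 CPM, and Nod2, a sensor of bacterial cell wall, from 0.421 ± 0.366 to 11.3 ± 0.917 CPM. Chemokines and cytokines had 14 of 26 higher and 4 lower. Ccl6 and Ccl9 rose from 9.52 ± 3.83 to 76.0 ± 20.1 CPM and 61.1 ± 1.76 to 207 ± 38.5 CPM, and Ccl3 and Il12a fell from 53.5 ± 10.8 to 19.8 ± 4.10 CPM and 32.1 ± 5.02 to 10.7 ± 2.39 CPM.

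Most interferon-stimulated genes rose, and the untreated libraries differed among themselves. Of 43 tested, 31 rose and 1, Ifitm1, fell, with a median of 1.20; 17 rises passed the test against 1.5-fold. Oas3, an antiviral sensor of double-stranded RNA, measured 13.9, 66.0 and 21.98 CPM in untreated and 189, 194 and 185 CPM in day 4 libraries (log2 fold change 2.48 ± 0.45, adjusted p = 0.00155). It was not called with the replicate number added to an edgeR fit of the 6 libraries (adjusted p = 0.0705). Ifit3 measured 2.13, 10.3 and 2.44 CPM in untreated and 39.5, 50.7 and 53.7 CPM in day 4 libraries (log2 fold change 3.26 ± 0.75, adjusted p = 0.00588). In both genes untreated replicate 2 was 3 to 5 times the other untreated libraries, and still under every day 4 library. The summed level of the list was 2350 to 4589 CPM in untreated and 6732 to 7836 CPM in day 4 libraries. Ifitm1, a membrane protein that limits virus entry, measured 42.1, 42.6 and 65.1 CPM in untreated and 27.0, 20.3 and 8.66 CPM in day 4 libraries. It was not called with the replicate number added to an edgeR fit of the 6 libraries (adjusted p = 0.163).

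Intracellular signalling genes rose in large numbers. Of 47 kinases, adaptors and phosphatases of immunoreceptor signalling 37 rose and 0 fell, with a median of 0.80 against -0.01 over all genes. Gapt, a membrane adaptor that binds GRB2, measured 4.40, 4.59 and 3.88 CPM in untreated and 127, 168 and 177 CPM in day 4 libraries (log2 fold change 5.19 ± 0.22, adjusted p = 3.61e-08). Pik3r5, a regulatory subunit of PI3 kinase gamma, went from 1.69 ± 0.720 to 44.8 ± 10.9 CPM. Of 20 JAK, STAT and SOCS genes 9 rose and 0 fell, among them Stat2 (log2 1.52) and Jak2 (log2 1.08). NF-kappaB genes had 12 of 23 higher and 2 lower, or 1 lower without untreated replicate 3, with Rel, a subunit of lymphoid and myeloid cells, from 6.87 ± 1.53 to 24.8 ± 0.842 CPM.

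MAP kinase and RAS feedback genes were closer to the background, with 7 of 26 higher and 4 lower, or 2 lower without day 4 replicate 3. Rasgrp4, an activator of RAS in mast and myeloid cells, went from 4.01 ± 0.546 to 48.1 ± 3.48 CPM. Of 38 genes of the actin and phagocytosis machinery 32 rose and 1, Ezr, fell, though Ezr was not called without untreated replicate 2 or 3, day 2 replicate 1 or day 4 replicate 1 or 2 (adjusted p 0.0516 to 0.160). Of the rises, 17 passed the test against 1.5-fold. Coro1a, an actin regulator of leukocytes, measured 158, 297 and 191 CPM in untreated and 1044, 1284 and 1239.9 CPM in day 4 libraries (log2 fold change 2.47 ± 0.20, adjusted p = 2.40e-06). Actb measured 2122, 2309 and 2202 CPM in untreated and 4656, 5157 and 4840.1 CPM in day 4 libraries (log2 fold change 1.14 ± 0.09, adjusted p = 1.91e-06). Lsp1, an F-actin binding protein, went from 24.9 ± 7.63 to 361 ± 86.1 CPM.

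**Figure D3:**
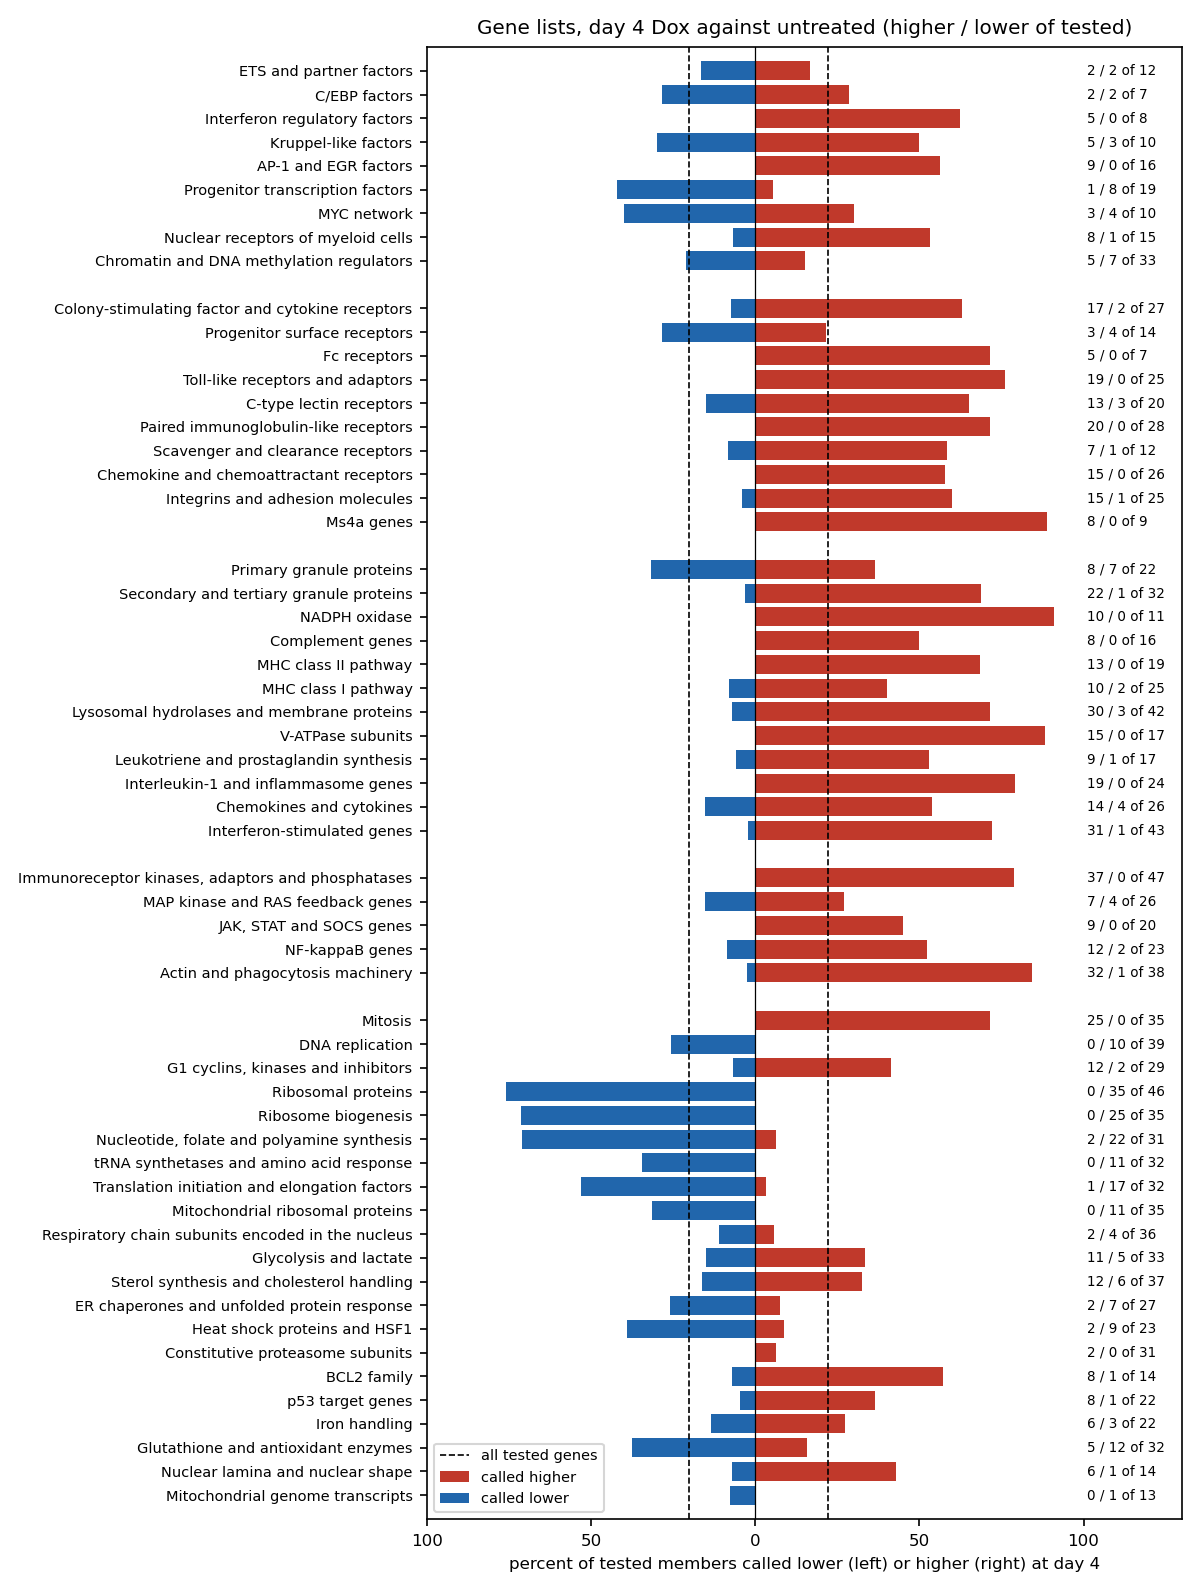
Percent of tested members of each gene list called higher (red, to the right) or lower (blue, to the left) at day 4, in blocks for regulators, receptors, effectors, signalling and growth, with the numbers of members at the right edge and dashed lines at the shares over all tested genes. Most receptor, effector and signalling lists lie to the right, while progenitor surface receptors and primary granule genes reach to both sides. The lists of ribosomes, nucleotide synthesis and translation lie to the left. Mitosis has 25 of 35 members higher and DNA replication 10 of 39 lower, the latter near the share over all genes.

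Mitosis genes rose widely, while the share of replication genes that fell was near that of all genes. Of 35 mitosis genes 25 rose and 0 fell, with a median of 0.53, and 3 passed the test against 1.5-fold. Kif23, a kinesin of cytokinesis, measured 36.7, 42.2 and 31.2 CPM in untreated and 85.2, 83.7 and 97.6 CPM in day 4 libraries (log2 fold change 1.27 ± 0.21, adjusted p = 5.08e-04). Racgap1 and Ube2c, which act at cytokinesis and mitotic exit, rose by 0.95 and 0.85 on the log2 scale. Of 39 replication genes 10 fell, or 25.6% against 20.2% of all genes, and 0 rose, with a median of -0.16. Of these falls 0 passed the test against 1.5-fold. The number that fell was 3 to 5 without untreated replicate 1 or 2 or day 4 replicate 2 or 3. It was 18 to 21 with upper-quartile factors or library totals. Mcm6, a helicase subunit, measured 646, 681 and 655 CPM in untreated and 495, 436 and 450.0 CPM in day 4 libraries (log2 fold change -0.52 ± 0.10, adjusted p = 0.00147). Of 29 genes of the G1 phase 12 rose (41.4% against 22.1% of all genes) and 2 fell, the latter being the kinases Cdk6 and Cdk4. Cdk6 measured 249, 217 and 246 CPM in untreated and 104, 85.7 and 69.9 CPM in day 4 libraries (log2 fold change -1.46 ± 0.16, adjusted p = 2.79e-05). Btg2, an antiproliferative gene, went from 10.3 ± 1.68 to 69.0 ± 11.1 CPM, and the cyclin Ccnd3 from 154 ± 33.2 to 274 ± 3.08 CPM.

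Many genes of ribosomes and biosynthesis fell, mostly by small amounts. Of 46 ribosomal protein genes 35 fell and 0 rose, with a median of -0.51, and 0 passed the test against 1.5-fold. Rps18 measured 384, 375 and 397 CPM in untreated and 244, 225 and 208 CPM in day 4 libraries (log2 fold change -0.77 ± 0.10, adjusted p = 7.08e-05). Ribosome biogenesis had 25 of 35 lower and 0 higher, 5 past 1.5-fold. Npm1, the nucleolar histone chaperone, measured 346, 442 and 326 CPM in untreated and 202, 178 and 175 CPM in day 4 libraries (log2 fold change -1.003 ± 0.17, adjusted p = 5.62e-04). Of 31 genes of nucleotide, folate and polyamine synthesis 22 fell and 2 rose, or 1 rose without untreated replicate 1 or 2 or day 4 replicate 3. Phgdh, the entry enzyme of serine synthesis, and Odc1, of polyamine synthesis, went from 207 ± 12.7 to 75.0 ± 16.5 CPM and 143 ± 17.8 to 57.9 ± 12.7 CPM. With upper-quartile factors 37, 27 and 22 members of these 3 lists were lower. Those factors moved the median of all genes to -0.11, toward lower values, so they are no check on a fall. The test against 1.5-fold left 0, 5 and 6 members lower.

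Further lists concern protein synthesis and mitochondria. Translation factors had 17 of 32 lower and 1 higher (0 higher without untreated replicate 1 or day 4 replicate 2), 0 of the falls past 1.5-fold, and Eef1a1, the abundant elongation factor, measured 3705, 3695 and 3971 CPM in untreated and 2580.2, 2484 and 2601 CPM in day 4 libraries. Aminoacyl-tRNA synthetases and amino acid response genes had 11 of 32 lower, or 6 to 7 without untreated replicate 2 or day 4 replicate 2 or 3, 15 by library totals and 18 with upper-quartile factors. Asns, asparagine synthetase, went from 76.3 ± 19.5 to 37.9 ± 0.748 CPM. Mitochondrial ribosomal proteins had 11 of 35 lower, or 6 without untreated replicate 2 and 7 without day 4 replicate 3. Nuclear-encoded respiratory chain genes stayed below the background, with 4 of 36 lower and 2 higher. The lower count was 1 without untreated replicate 2 or day 4 replicate 3, 8 without day 6 replicate 2 and 10 with upper-quartile factors, and the higher count 0 to 1 without untreated replicate 1 or 3 or any single day 4 library. Of 13 transcripts of the mitochondrial genome 1, ND1, fell, by 0.28 on the log2 scale. It was not called without any single untreated library, day 2 replicate 2 or day 4 replicate 2 or 3 (adjusted p 0.0506 to 0.138).

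Metabolic and stress lists were mixed. Glycolysis genes had 11 of 33 higher and 5 lower, the latter 2 to 3 without untreated replicate 1 or 3 or day 4 replicate 2 or 3. Pfkp, a phosphofructokinase, rose from 164 ± 23.99 to 309.9 ± 33.3 CPM. Sterol and cholesterol genes had 12 of 37 higher, 6 without untreated replicate 1 and 7 without day 4 replicate 3, and 6 lower, 2 to 3 without any 1 of the day 2 or day 4 libraries. Fdps, of the mevalonate pathway, and Fasn, fatty acid synthase, went from 15.2 ± 3.26 to 33.9 ± 2.45 CPM and 290.3 ± 34.4 to 182 ± 24.7 CPM. Chaperones of the endoplasmic reticulum had 7 of 27 lower, near the 20.2% of all genes, with 4 lower without untreated replicate 3 and 12 without day 6 replicate 2.

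Heat shock genes had 9 of 23 lower, or 15 without day 6 replicate 2. Hspa1b, an inducible HSP70, measured 5.81, 9.19 and 112 CPM in untreated and 1.20, 0.875 and 3.52 CPM in day 4 libraries, and without untreated replicate 3 it was not called (log2 fold change -1.996, adjusted p = 0.0679), nor without day 4 replicate 2 (adjusted p = 0.0547), by limma voom or with only the 6 libraries (adjusted p = 0.167 and 0.111). Serpinh1, the collagen chaperone, measured 35.5, 58.6 and 123 CPM in untreated and 4.20, 3.94 and 4.11 CPM in day 4 libraries (log2 fold change -4.14 ± 0.42, adjusted p = 2.67e-05). It too was highest in untreated replicate 3, and every day 4 library lay far below every untreated one. Of 32 glutathione and antioxidant genes 12 fell (37.5% against 20.2% of all genes) and 5 rose (15.6% against 22.1%). The falls were led by glutathione transferases, with Gstm1, of a family whose members share sequence, at 373, 256 and 610.0 CPM in untreated and 110.1, 109.6 and 104 CPM in day 4 libraries. Gpx1, a peroxidase, rose from 622 ± 83.0 to 1155 ± 82.0 CPM. Few proteasome subunits were called, with 2 of 31 higher and 0 lower. The higher count ranged from 1 to 7 as single libraries were left out, 7 without day 6 replicate 2 and 4 without untreated replicate 2.

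Genes on both sides of the BCL2 family rose. Of 14 tested 8 rose (57.1% against 22.1% of all genes) and 1 fell. The proapoptotic genes Bmf and Bcl2l11 rose from 32.5 ± 12.2 to 91.4 ± 10.7 CPM and 34.3 ± 10.8 to 85.3 ± 17.1 CPM. The antiapoptotic Mcl1 measured 310.4, 322 and 371 CPM in untreated and 656, 784 and 736 CPM in day 4 libraries (log2 fold change 1.12 ± 0.12, adjusted p = 1.66e-05), while Bcl2 measured 53.9, 50.3 and 48.8 CPM in untreated and 32.1, 17.5 and 24.4 CPM in day 4 libraries (log2 fold change -1.05 ± 0.23, adjusted p = 0.00330). Of 22 genes known as p53 targets in other settings 8 rose and 1, Xpc, fell, against 22.1% and 20.2% of all genes, in a leukemia that lacks p53. The median of that list was 0.28 on the log2 scale, and 1 of the rises passed the test against 1.5-fold. Iron genes had 6 of 22 higher and 3 lower, near the 22.1% and 20.2% of all genes. Slc11a1, a phagosomal metal transporter, and Hmox1, heme oxygenase, went from 18.4 ± 10.2 to 145 ± 31.0 CPM and 11.6 ± 4.68 to 64.0 ± 16.4 CPM. Nuclear lamina genes had 6 of 14 higher, with Sun1 from 67.1 ± 10.1 to 129 ± 2.12 CPM.

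In the lists where no member was called in 1 direction, edgeR gave 0 members that way at an unadjusted p under 0.05, and DESeq2 and limma voom called 0, with 2 exceptions. Plcg1 of the immunoreceptor list was lower at an unadjusted p and in both other tools, and Sesn2 and Slc7a11 of the amino acid response list were higher at an unadjusted p alone. Leaving out single libraries gave 0 to 3 lower members in the immunoreceptor list and 0 to 2 higher members in the amino acid response list. Without day 6 replicate 2, 1 member was called in the empty direction of the lists of replication, the NADPH oxidase, the mitochondrial ribosome and the proteasome, and without day 4 replicate 1, 1 class II pathway member was called lower.

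**Figure D4:**
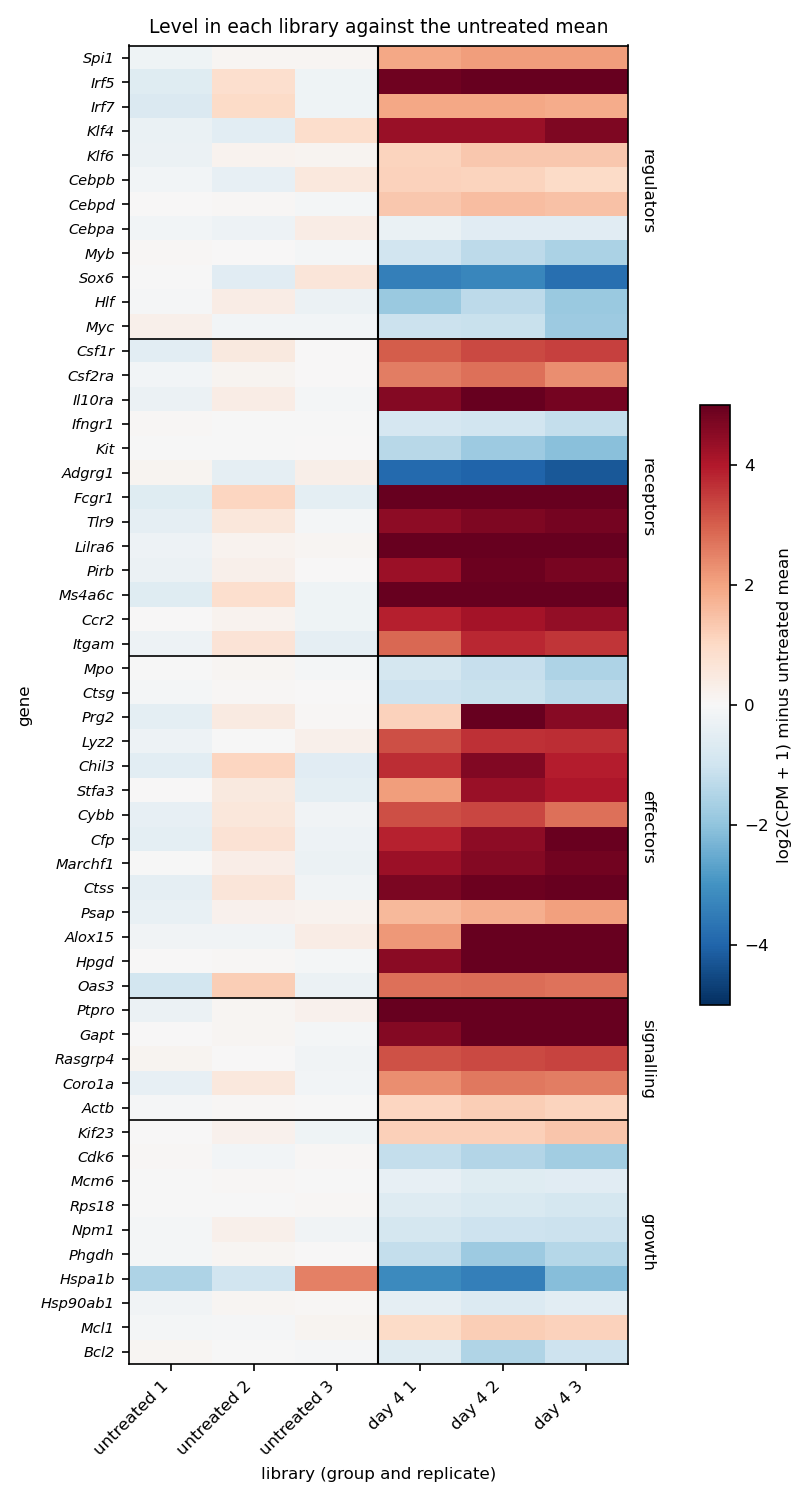
Level of 54 genes (rows, in blocks by role) in the 3 untreated and 3 day 4 libraries (columns), as log2(CPM + 1) minus the untreated mean, red above and blue below, with the scale limited to 5 either way. Receptor and signalling rises are seen in all 3 day 4 libraries, Prg2 and Alox15 are weakest in day 4 replicate 1, and Hspa1b is raised in untreated replicate 3.

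Several markers of other bone marrow cells were at or near 0. The B-cell factor gene Pax5, the collagen gene Col3a1, the platelet receptor gene Gp6 and the tissue macrophage gene Marco had 0 counts in all 6 libraries. Hba-a1, an alpha-globin gene, had at most 2 counts and Cd3e at most 1 count in a library. Other members of these lists did have reads. Cxcl12 of the stroma list measured 45.7, 31.5 and 51.7 CPM in untreated and 60.2, 31.5 and 51.8 CPM in day 4 libraries, and was not called. Of 2 erythroid markers that could be tested 2 fell (1 without any single untreated library or day 4 replicate 1 or 3), and of 4 B and plasma cell markers 2 fell, Igll1 and Sdc1. Sdc1, a syndecan also found outside plasma cells, measured 10.5, 17.3 and 31.0 CPM in untreated and 2.25, 3.94 and 5.14 CPM in day 4 libraries. Of 7 tested markers of stroma, endothelium and bone, 3 rose (Sparc, Acta2 and Tagln) and 1, Pdgfrb, fell; the list's median was 0.95 on the log2 scale. Acta2, smooth muscle actin, rose from 3.07 ± 0.815 to 10.5 ± 1.97 CPM. Pdgfrb, a receptor of stromal and perivascular cells, measured 213, 143 and 232 CPM in untreated and 85.4, 55.0 and 54.6 CPM in day 4 libraries (log2 fold change -1.59 ± 0.22, adjusted p = 1.96e-04). Among 9 markers of tissue macrophages Adgre1, which encodes F4/80, and Siglec1 rose, from 9.13 ± 3.29 to 104 ± 34.9 CPM and 0.752 ± 0.485 to 25.4 ± 11.2 CPM, close to the 22.1% of all genes in share, and Siglec1 was not called by limma voom (adjusted p = 0.0678). The macrophage markers C1qa, Vcam1, Cd163 and Slc40a1 were not called.

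Libraries of a group did not stand equally far along the difference. Of the 444 genes that rose at least 4-fold, day 4 replicate 1 was the lowest day 4 library in 339, and untreated replicate 1 the lowest untreated library in 247. Untreated replicate 2 was the highest untreated library in 241 of them. Of the 173 genes that fell at least 4-fold, day 4 replicate 1 was the highest day 4 library in 105, and untreated replicate 3 the highest untreated library in 94. The genes were chosen by this contrast, so these counts describe the libraries and are no test. The values of Irf5, Fcgr1 and Oas3 above show the high untreated replicate 2, and those of Lyz2, Itgam and Stfa3 the low day 4 replicate 1.

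The day 4 level can be placed between its neighbours in time. From day 2 to day 4, 1812 genes (15%) rose and 1230 (10.2%) fell, and from day 4 to day 6, 2851 (23.6%) rose and 2726 (22.6%) fell, in fits that share the day 4 libraries. For Spi1 the day 2 mean was 109.6 ± 12.01 CPM and the day 6 mean 458 ± 33.9 CPM, and the day 4 mean of 260.1 ± 14.1 CPM lay between them (adjusted p = 1.53e-05 and 8.61e-05). Lyz2, Actb, Itgam, Chil3 and Cybb were likewise higher at day 4 than at day 2 and higher again at day 6. Chil3 averaged 51.1 ± 17.0, then 1022 ± 371 and then 12572 ± 1506 CPM on days 2, 4 and 6. Kit fell between day 2 and day 4, from 352 ± 32.0 CPM, and its day 6 mean of 181 ± 80.4 CPM was not called against day 4 (adjusted p = 0.310). Without day 6 replicate 2, Kit was called higher at day 6 than at day 4 (log2 fold change 0.70, adjusted p = 0.00350).

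Other genes were highest at day 4. Lpl averaged 95.0 ± 26.9, then 597 ± 91.2 and then 155 ± 30.8 CPM, with calls on both sides (adjusted p = 1.34e-05 and 3.11e-05). Klf4 went from 38.5 ± 8.17 to 212 ± 30.2 and then 73.7 ± 41.4 CPM (adjusted p = 0.00169 and 0.00935), and Psap from 2275 ± 296 to 5506 ± 785 and then 2906 ± 707 CPM (adjusted p = 6.88e-04 and 0.00232). Ptpro averaged 5.05 ± 1.09, then 108 ± 18.2 and then 53.8 ± 26.4 CPM (adjusted p = 1.40e-05 and 0.0123), and its day 6 difference was not called without day 6 replicate 3 (adjusted p = 0.0510). Nedd4 was the reverse, at 541 ± 65.7, then 197 ± 41.6 and then 364 ± 99.7 CPM (adjusted p = 3.62e-04 and 0.00350). The day 6 means include replicate 2, which lay closer to day 4 than the other day 6 libraries in Irf5, Tlr9, Klf4 and Csf1r, as the plot of 16 genes by library shows.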

How the data were processed

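RNA of GFP-sorted AML246 cells was prepared with a column kit and sequenced from standard Illumina libraries, per the labels' protocols. The deposited values are raw read counts per Entrez gene for 27179 identifiers, made by the authors with no normalisation. Per the submitters' processing notes, mm10 was the build, and the tools were featureCounts, CASAVA 1.8.2, limma 3.22.0 and edgeR 3.8.2, with no steps assigned. The sources name neither an aligner nor a strand setting, so overlapping and antisense genes may share reads, as may close copies.

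Identifiers were named from RefSeq (25275) and GENCODE (18), with 1886 left unnamed. Counts were fitted with edgeR 4.0.16 in R 4.3.3 (filterByExpr, TMM factors, robust glmQLFit and glmQLFTest, 4 groups, all 12 libraries), which left 12057 tested genes and a biological coefficient of variation of 14.3%. The untreated libraries hold 6157782 to 6593582 counts and those of day 4 hold 6449662 to 6728656, and 3 counts were taken as the detection floor; floors and intervals cover counting error only. Calls use an adjusted p under 0.05. DESeq2 1.42.0 and limma 3.58.1 (voom), other scalings and filters, glmTreat at 1.5-fold, the 6 libraries alone, replicate blocks and each library left out were run as alternatives. The test was tried on simulated data.

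The comparison and the 66 gene lists were chosen with earlier results of these data known. Named genes are Spi1 and Trp53; the 10 largest rises and falls at 100 CPM or more without overlap; the 8 largest gains and losses in CPM; from each list, up to 4 called members of the direction most of them took and up to 2 of the opposite one, at 10 CPM or more; and leading members of runs. Genes with almost no reads in 1 group, and genes named as list exceptions or cell markers outside this rule, were chosen after their values were seen. A few genes that the rule names are not reported here. Promoters (250 bases before to 50 after the start) come from RefSeq GRCm38.p6.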

Additional observations from a re-analysis of the deposited data

How the results depend on the processing

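All counts of calls are for day 4 against untreated. DESeq2 called 2629 genes higher and 2434 lower, limma voom 2670 and 2531, and edgeR with DESeq2 size factors 2621 and 2490. Upper-quartile factors gave 2239 and 3197, and library totals 2090 and 3253. With glmTreat at 1.5-fold, 986 genes were higher and 505 lower, and Trp53, with the same log2 fold change of -0.51, had an adjusted p of 1.0. Leaving out 1 library gave 2173 to 3103 genes higher and 1670 to 3040 lower, the highest values without day 6 replicate 2, and the lowest without day 4 replicate 3 and day 4 replicate 2. Calls of at least 2-fold ranged over 945 to 1087 higher and 544 to 714 lower, Spi1 over 1.96 to 2.11 and Trp53 over -0.59 to -0.40 on the log2 scale. The 8 largest gains held 12.5% to 13.4% and the 8 largest losses 15.9% to 16.8% of the change without 1 library; the values were 14.3% and 14.5% with upper-quartile factors and 14.7% and 14.05% by library totals. The motif GGAAGT stood in 33.8% of all promoters, 37.5% of genes that rose, 39.6% of those that rose 4-fold and 30.5% of those that fell, and AGAGGAAGT in 1.47%, 2.99%, 5.62% and 0.795%. Runs numbered 26 higher and 12 lower at 5 genes or more, 160 and 128 at 3 or more, and 14 and 0 with calls of at least 2-fold. Residuals of libraries with the same replicate number correlated at 0.1045, 0.0840 and 0.1005, and those of different numbers at -0.0854 to -0.0196. The rule set for pairing was not met, although each library correlated best with its own number. Whether a number marks a shared mouse or batch was not tested. With the replicate block the counts were 2616 and 2315 over all 12 libraries, and 2899 and 2798 over the 6. Of 170 called genes named in the text, 28 were not called with glmTreat, 6 by limma voom (Alox15, Hspa1b, Ifi208, Ifit3b, Prg3 and Siglec1), 3 with no filter on low counts (Ezr, ND1 and Tnfrsf1b) and 10 without some single library, and 0 reversed. With the replicate block 6 were not called, ND1 over all 12 libraries and Cfb, Ifitm1, Irf7, Oas3 and Prg2 over the 6 (adjusted p 0.0647 to 0.163). The cause of these shifts was not tested.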

Other observations

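Lists of other cell types that could be present in bone marrow gave the following summed levels. The T and NK cell list stood at 32.2 to 53.3 CPM in untreated and 70.2 to 86.2 CPM in day 4 libraries, with Cd28 the 1 tested member called, though not without untreated replicate 1 or 2 or any single day 4 library, while Cd3e had at most 1 count in a library. The other 4 tested members, Gzma, Gzmb, Prf1 and Il2rb, were not called. Gzma had 13, 18 and 20 counts in untreated and 29, 54 and 4 counts in day 4 libraries, Gzmb 20, 24 and 21 and then 40, 49 and 4, Prf1 4, 7 and 8 and then 8, 28 and 6, and Il2rb 8, 7 and 7 and then 17, 45 and 19. The dendritic cell list stood at 233 to 313 and 298 to 331 CPM, the megakaryocyte list at 6.47 to 18.2 and 7.65 to 14.3 CPM, and the B and plasma cell list at 28.4 to 46.7 and 11.6 to 13.4 CPM. The erythroid list stood at 7.76 to 16.1 CPM in untreated and 2.94 to 4.96 CPM in day 4 libraries. The list for stroma, endothelium and bone stood at 185 to 293 and 110.2 to 164 CPM, a sum in which Pdgfrb fell while Sparc, Acta2 and Tagln rose, and that for tissue macrophages at 110 to 149 and 196 to 320 CPM. Their part in the results was not tested.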
